A study of Mus musculus with 90 samples.

Results

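The sites described here were genomic regions of mouse liver that were bound by the glucocorticoid receptor (GR) but not by the transcription factor FOXO1 and that lay in open chromatin. They were chosen by position alone, as the GR peaks with no base in common with a FOXO1 peak and at least 1 bp in common with a DNase-hypersensitive site (DHS), a stretch of chromatin that the enzyme DNase I cuts easily. Of 10446 GR peaks, 3972 met the rule, which is 38% of the list. The other GR peaks comprised 4553 that overlapped both a FOXO1 peak and a DHS, 1376 with no FOXO1 peak outside the DHSs, and 545 with FOXO1 outside the DHSs. The choice used no signal value, because the lists gave positions and no peak height.

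GR and FOXO1 binding were measured by chromatin immunoprecipitation and sequencing (ChIP-seq) in livers of C57BL/6 mice (C57BL/6N males, 10 weeks old, in the study's methods) on night-restricted feeding (NRF), taken at zeitgeber time 14 (ZT14, in hours after lights-on) before any food was given, with 2 libraries of pooled livers for each factor, and the DHSs were called on fed and unfed livers together. RNA was sequenced from livers of single mice. Adult GR fl/fl mice of the C57BL/6N background, which carry a floxed Nr3c1 gene, received an adeno-associated virus (AAV) that expressed Cre from a hepatocyte promoter (L-GRKO, 4 mice) or an AAV with GFP (4 mice), and both were taken unfed at ZT14. Wild-type mice of that strain and age were injected before the meal and taken at ZT14 after feeding with vehicle (PBS), with 1 mg/kg of the synthetic glucocorticoid dexamethasone (dex), or with the insulin receptor antagonist S961 (44 nM per mouse as the labels give it). A vehicle-injected group stayed unfed, and each of these groups had 4 mice. In the study's methods, the GR fl/fl mice and the injected mice were on night-restricted feeding as well. Male mice given a high-fat diet (HFD) for 10 weeks from 5 weeks of age (DIO) and lean mice on chow for as long, 3 each, were moved to night-restricted feeding and taken unfed at ZT14. The Cre driver restricts the deletion to hepatocytes, and the other cells of the liver keep GR.

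GR is the nuclear receptor for glucocorticoids, the adrenal hormones that rise before the active phase and in fasting. It binds DNA as a dimer at an inverted repeat, the GR response element, and often at sites that C/EBP factors or other hepatocyte factors hold open. FOXO1 is a forkhead factor of the fasting liver that insulin removes from the nucleus. Both factors are known to bind near genes of gluconeogenesis, and the genes near sites of GR alone were set apart here from those that also had FOXO1 nearby.

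The sequences below show what a response element looked like at these sites. Each is the stretch of 85 bases around the best match in a member, read from the mm9 (NCBIM37) reference on the plus strand, in lower case with the 6 letters on either side of the 3-base spacer in capitals. The full element has AGAACA on the left and TGTTCT on the right. The sites shown for Pik3r1, Lcn2, Csf1, Hsd11b1, Nfkbia, Dusp1, Angptl4 and Got1 are members with at most 2 of the 12 letters different that lay within 50 kb of a known glucocorticoid target or of a leading called gene without FOXO1 nearby, and the sites nearest to Frs2 and P4ha2, which were picked after their sequences were seen, carried all 12 letters. The full element was found in 3 members. The place on each line is that of the site, which may lie in another gene than the one named. The sites named for Hsd11b1, Lcn2 and Angptl4 lay 46794, 31661 and 47532 bp upstream of the starts of these genes.
Frs2, chr10:116548659-116548743, intron, 0 letters different: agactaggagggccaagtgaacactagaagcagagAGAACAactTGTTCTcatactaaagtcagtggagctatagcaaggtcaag
P4ha2, chr11:53926652-53926736, exon, 0 letters different: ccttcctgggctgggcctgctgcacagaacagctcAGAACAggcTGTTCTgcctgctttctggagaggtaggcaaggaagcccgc
Pik3r1, chr13:102582062-102582146, intergenic, 1 letter different: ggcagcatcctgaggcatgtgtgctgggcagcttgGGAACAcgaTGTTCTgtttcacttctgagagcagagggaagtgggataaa
Lcn2, chr2:32274973-32275057, intron, 1 letter different: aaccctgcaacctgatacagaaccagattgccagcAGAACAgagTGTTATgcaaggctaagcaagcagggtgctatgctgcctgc
Csf1, chr3:107546719-107546803, intron, 2 letters different: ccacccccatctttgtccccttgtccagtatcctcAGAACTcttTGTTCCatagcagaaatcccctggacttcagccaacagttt
Hsd11b1, chr1:195137066-195137150, intron, 2 letters different: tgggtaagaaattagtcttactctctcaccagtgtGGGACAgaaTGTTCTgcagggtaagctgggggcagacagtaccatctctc
Nfkbia, chr12:56589793-56589877, intergenic, 2 letters different: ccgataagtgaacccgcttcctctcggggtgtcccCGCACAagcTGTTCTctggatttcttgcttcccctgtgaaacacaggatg
Dusp1, chr17:26672238-26672322, intergenic, 2 letters different: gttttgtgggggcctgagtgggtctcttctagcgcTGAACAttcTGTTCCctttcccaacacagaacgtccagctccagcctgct
Angptl4, chr17:33965994-33966078, intron, 2 letters different: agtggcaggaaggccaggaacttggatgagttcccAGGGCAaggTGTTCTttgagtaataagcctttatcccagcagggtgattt
Got1, chr19:43573599-43573683, intergenic, 2 letters different: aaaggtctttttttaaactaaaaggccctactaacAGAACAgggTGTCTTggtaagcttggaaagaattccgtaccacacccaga
The element lay within 44 bp of the peak centre in these members apart from that near Hsd11b1, where it lay 66 bp away. Among the 8 genes whose sites are shown for this reason, Csf1 had no FOXO1 peak within 50 kb of its start and the other 7 had 1 to 4.

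Each member overlapped exactly 1 DHS, and 3972 of the 83592 DHSs held a member. Peaks were 180 bp wide and DHSs 168 bp, and the median overlap of a member with its DHS was 121 bp. In 1001 members the DHS covered at least 150 bp of the peak. Near the limits of the rule, 175 members shared only 1 to 20 bp with their DHS, and 147 GR peaks without FOXO1 lay outside a DHS by at most 20 bp. Likewise, 19 members had a FOXO1 peak edge within 20 bp, and 31 of the 4553 GR peaks with FOXO1 in a DHS were kept out by an overlap of 1 to 20 bp. Most overlaps between GR and FOXO1 were far from this limit, with a median of 150 bp shared.

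FOXO1 was often distant from the members. The median distance from a member to the nearest FOXO1 peak was 24.4 kb (quartiles 6.5 and 97.7 kb), 2670 members had none within 10 kb, and 1460 had none within 50 kb. For the GR peaks without FOXO1 outside the DHSs, the median was 10.4 kb (quartiles 2.31 and 54.7 kb). A FOXO1 peak lay within 1 kb of 287 members, and in 59 members the DHS itself held a FOXO1 peak that did not reach the GR peak. The members were also sparser than the shared sites: the nearest other GR peak was at a median of 17.1 kb, compared with 8.38 kb for the GR peaks with FOXO1 in a DHS. It was at 6.05 kb for the GR peaks without FOXO1 outside the DHSs. Another GR peak lay within 10 kb of 1587 members.

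The members were mainly distal. Of the 3972, 462 or 11.6% (95% Wilson interval 10.7 to 12.7) lay within 2 kb of a gene start (TSS, any gene of the GENCODE annotation), 45.3% in introns further away, 39.5% between genes, and the rest in exons. GR peaks with FOXO1 had nearly the same share near a TSS, at 11% (10.1 to 12), whereas 30.7% (29 to 32.5) of the 2715 FOXO1 peaks without GR in open chromatin lay within 1 kb of a TSS, compared with 6.97% (6.22 to 7.81) of the members. Among DHSs with neither factor, 20.4% (20.1 to 20.7) lay within 2 kb. These intervals cover counting error over peaks, which are not replicates, and no test was made between classes.

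**Figure D1:**
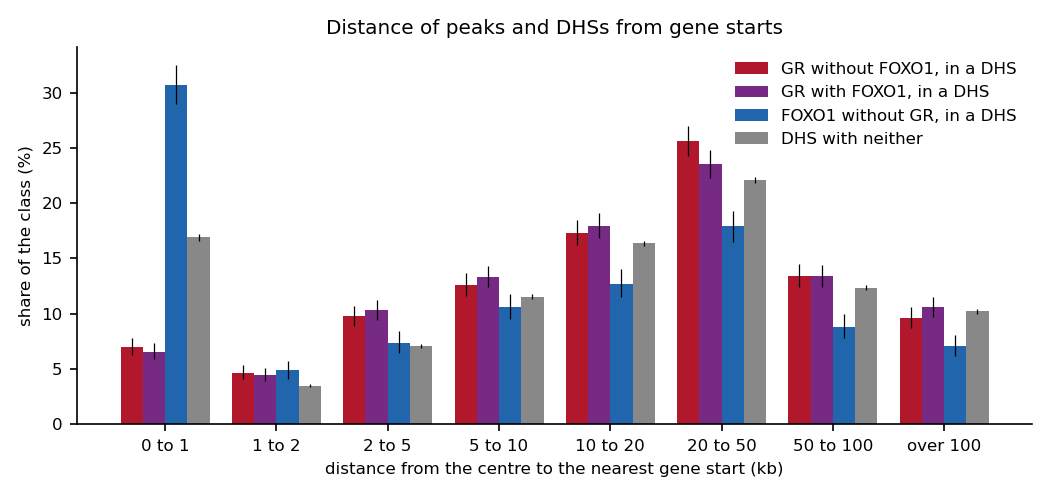
Share of each class of peaks or DHSs (y axis, percent, with 95% Wilson intervals) by distance from the centre to the nearest gene start (x axis, kb). Members (red) and GR peaks with FOXO1 (purple) follow each other, with 6.97% of the members within 1 kb, against 30.7% of FOXO1 peaks without GR (blue).

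The sequence around the peak centres held the GR response element more often, and the FOX motif less often, than DHSs in general. In 200-base windows, 349 members or 8.79% (7.95 to 9.71) held the element with at most 2 of 12 letters different on either strand, compared with 7.49% (6.76 to 8.29) of GR peaks with FOXO1, 1.03% of FOXO1 peaks without GR, and 1.94% of all DHSs. The letters GTAAACA, the FOX motif, occurred in 2.97% (2.49 to 3.55) of members, 12.3% (11.4 to 13.3) of GR peaks with FOXO1, 24.3% (22.8 to 26) of FOXO1 peaks without GR, and 5.16% (5.01 to 5.31) of all DHSs. The interval of the members lay below that of the 4.48% (4.34 to 4.64) of DHSs with neither factor. Of the 3972 members, 8 held both the element and the FOX motif.

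The position of the element tracked the peak centre. In the 20-base bins on either side of the centre, 2.27% and 2.67% of members held the element, compared with 0.227% and 0.327% in bins 150 bp away and 0.185% and 0.169% at the centre of DHSs with neither factor. For the FOX motif, the same central bins held 0.277% and 0.504% of members, against 1.47% and 1.78% of GR peaks with FOXO1. The element was thus concentrated at the peak centres, although only 349 of the 3972 members held it.

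**Figure D2:**
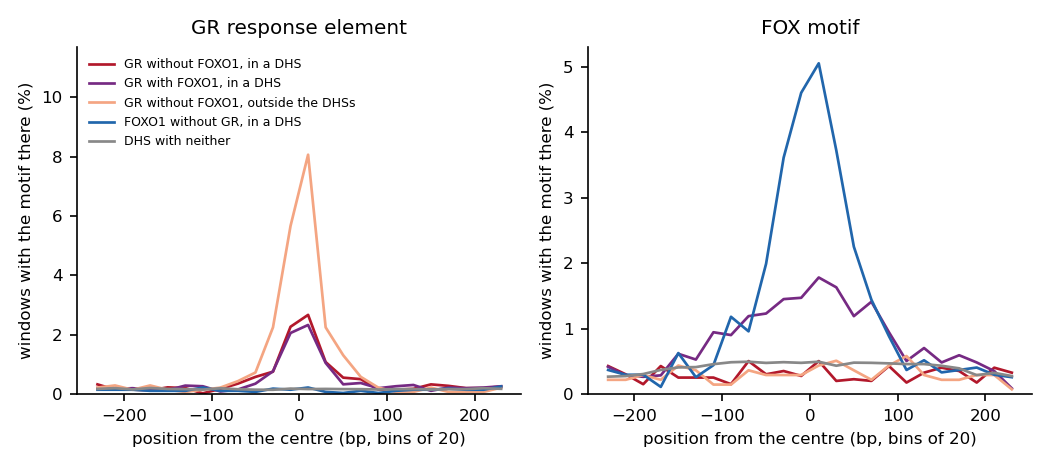
Share of windows (y axis, percent) with the GR response element (left) or the FOX motif (right) in 20-base bins by position from the centre (x axis, bp). The element peaks at the centre of the members (2.27% and 2.67%) and higher still in GR peaks without FOXO1 outside the DHSs, and the FOX motif is flat in the members.

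The element was more frequent at GR peaks outside open chromatin. GR peaks without FOXO1 outside the DHSs held the element in 20.9% (18.9 to 23.2), compared with 8.79% of the members. Among the members, the share was 10.6% (9.02 to 12.5) where the DHS covered under 90 bp of the peak, 8.16% (6.97 to 9.52) from 90 bp to under 150 bp, and 7.69% (6.2 to 9.51) at 150 bp or more, intervals that overlap. C/EBP letters (TTNNGCAA), by contrast, were less frequent at the GR peaks outside the DHSs than in the members, with 34.1% (32.7 to 35.6) of the members, 34.7% (33.4 to 36.1) of GR peaks with FOXO1, 22.6% (20.5 to 24.9) of GR peaks without FOXO1 outside the DHSs, and 15.4% (15.1 to 15.6) of all DHSs. C/EBP factors are leucine-zipper proteins that mark hepatocyte enhancers. The element and the C/EBP letters stood in 1 window in 89 members.

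Other motifs were counted in the same windows. The single site AGAACA, which is also part of the element, occurred in 28.9% of members and 16.8% of all DHSs. STAT letters (TTCNNNGAA) occurred in 9.64% against 6.89%, AP-1 letters (TGANTCA) in 8.38% against 7.36%, E4BP4 letters (TTATGTAA) in 2.79% against 1.70%, the E-box CACGTG in 3.05% against 3.86%, and HNF4 letters (CAAAGTCCA) in 1.96% against 1.25%. A direct repeat of the nuclear receptor site spaced by 1 base (DR-1, at most 2 letters different) was found in 8.18% of members and 6.57% of all DHSs. The stricter C/EBP letters TTGCGCAA, which the looser ones include, occurred in 0.705% against 0.202%, and the CREB letters TGACGTCA in 0.504% against 0.569%. None of these motifs was found in 29% of members and 50.2% of all DHSs. Letters are matches in a window and not measured binding, and base composition moved with the classes, with a median GC content of 45% in members, 44.5% in GR peaks with FOXO1, 49% in FOXO1 peaks without GR, and 47% in all DHSs. Its part in the differences was not tested.

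**Figure D3:**
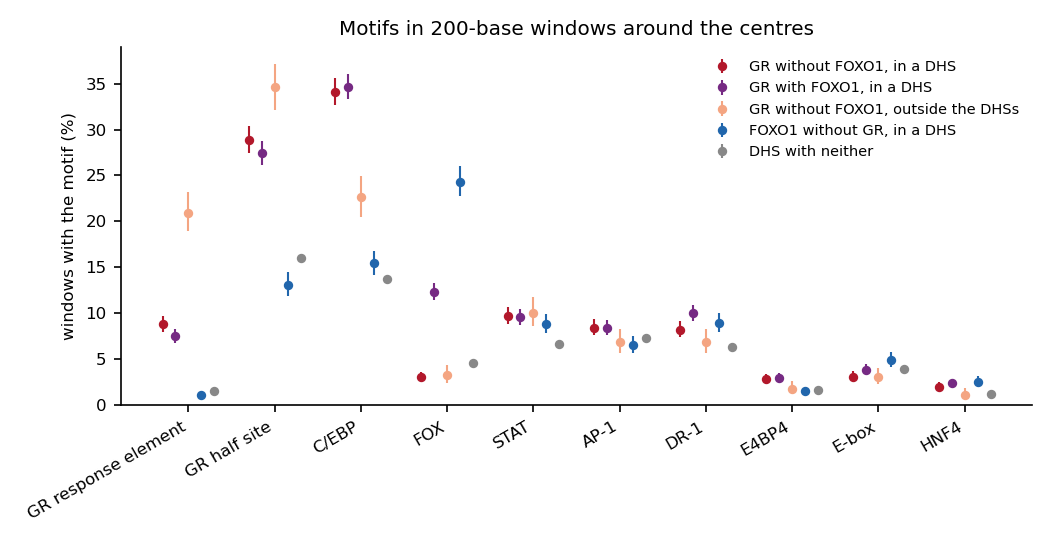
Share of 200-base windows that hold each motif (y axis, percent, with 95% Wilson intervals) in 5 classes of peaks or DHSs. Members (red) match the GR peaks with FOXO1 (purple) for the element and C/EBP, at 8.79% and 34.1%, and differ from them for the FOX motif, at 2.97% against 12.3%.

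Within the members, the shares were also taken by distance from FOXO1. The element was found in 9.41% (6.55 to 13.3) of the 287 members with a FOXO1 peak within 1 kb, 6.9% (5.49 to 8.62) of those at 1 to 10 kb, and 9.44% (8.39 to 10.6) of those further away, and the FOX motif in 2.44%, 2.17% and 3.33%, with overlapping intervals. Near and far from gene starts the element was held by 7.79% (5.68 to 10.6) and 8.92% (8.02 to 9.91) of members.

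To ask which genes lie near these sites, peak centres within 50 kb of a gene start were counted. Of 21899 genes placed on the annotation, 4375 had a member within 50 kb, of which 2841 also had a FOXO1 peak within 50 kb and 1534 had none. The 1534 genes, called GR-only genes, drew on 1015 members, and 1284 of them had a single member. A further GR peak of another class lay within 50 kb of 170 of them. No gene of the table had a start within 50 kb of 1358 members. The genes with the most members, 6 each, were Abhd17c, Dgat2, G0s2, Hsd11b1 and Lamb3, and each of them also had FOXO1 peaks (3 to 6). G0s2, Hsd11b1 and Lamb3 are neighbours on chromosome 1 and share most of these sites. Dgat2 makes triglyceride, G0s2 inhibits the lipase that breaks it down, and Hsd11b1 regenerates active glucocorticoid within the cell. Of these 5, Lamb3 alone was called in L-GRKO, with a log2 fold change of 0.86 ± 0.19 (SE) and an adjusted p of 0.025 by limma, at 0.221 to 0.485 RPKM with GFP and 0.695 to 1.426 RPKM with Cre, a call lost in 6 of 14 alternatives. G0s2 varied widely (2.40 ± 0.67, limma adjusted p = 0.059).

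The knockout was checked in every library by Nr3c1, which encodes GR. It was at 12.78, 14.52, 13.17 and 16.2 RPKM (reads per kilobase of transcript, scaled to the reads mapped) with GFP and at 3.932, 4.226, 4.14 and 5.35 RPKM with Cre. The groups did not overlap, and the log2 fold change was -1.58 ± 0.12 (SE, limma, adjusted p = 6.8e-05). Fold changes are on log2(RPKM + 0.5) throughout, which understates those of low genes, and a gene is called at a Benjamini-Hochberg adjusted limma p under 0.05 over all genes tested. Hepatocyte markers were high in all libraries (summed RPKM of 7 genes between 32380 and 76420) and none was at 0. Each RNA library was a separate mouse. The counts that the study's supplement lists for RNA libraries were not used here.

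In L-GRKO livers, GR-only genes, as counted within 50 kb, changed about as often as genes in general. Of 947 tested, 42 or 4.44% (3.3 to 5.94) were higher and 22 or 2.32% (1.54 to 3.49) lower, against 4.46% and 2.22% of all 11649 genes tested. Genes with both a member and a FOXO1 peak within 50 kb stood higher in both directions, at 8.34% (7.26 to 9.56) higher and 6.09% (5.17 to 7.16) lower of 2218. Genes with FOXO1 peaks but no member gave 4.86% (4.18 to 5.63) and 2.27% (1.82 to 2.82), and genes with neither 2.2% (1.81 to 2.67) and 0.264% (0.151 to 0.46). GR peaks other than members were not used to form these groups. Genes with both, and genes with FOXO1 peaks but no member, could have GR peaks shared with FOXO1 nearby. Genes with neither could have GR peaks outside the DHSs. The median log2 fold change was 0.08 in the GR-only genes, in the genes with both, and over all genes. Scaling each library by its median ratio to the geometric mean of the libraries moved the median of all genes to 0, and with it the split of GR-only calls turned from 42 higher and 22 lower to 25 and 31, and that of all calls from 519 and 259 to 294 and 369. Genes with both were more highly expressed, with a median of 3.43 on the log2(RPKM + 0.5) scale against 2.73 in GR-only genes and 2.18 in genes with neither, and its part in the shares was not tested.

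**Figure D4:**
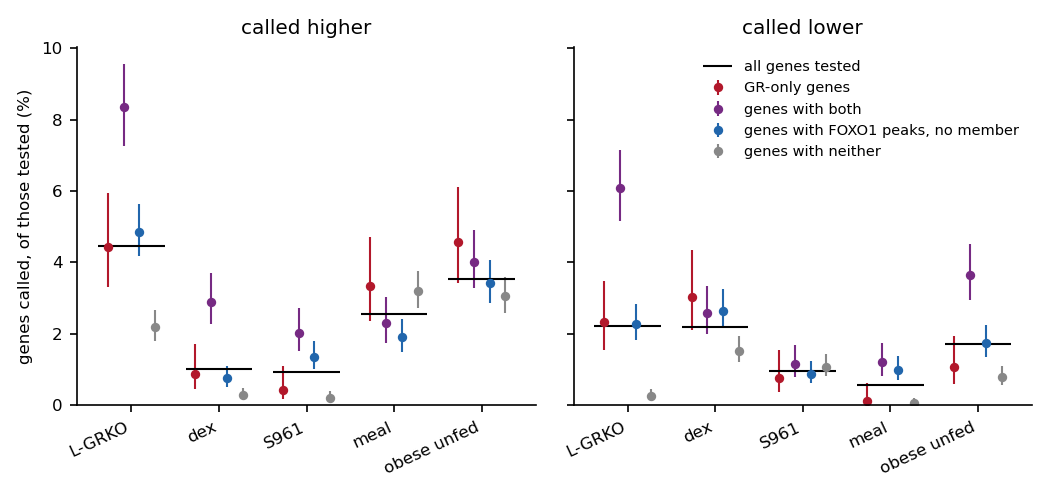
Percent of the genes tested that were called higher (left) or lower (right) at an adjusted p under 0.05 in 5 comparisons (x axis). Genes are grouped by the members and FOXO1 peaks within 50 kb of the gene start, with 95% Wilson intervals over genes. Black lines mark all genes tested, and GR-only genes (red) sit at 4.44% and 2.32% in L-GRKO, beside 4.46% and 2.22% over all genes.

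Calls were also counted by the number and kind of site. GR-only genes with 1 member were lower in 15 of 777 (1.93%), with 2 members in 7 of 143 (4.9%, 2.39 to 9.76), and with 3 or more in 0 of 27 (0 to 12.5%), where limma gave 1 lower gene at an unadjusted p under 0.05. Where a member held the response element, 3 of 94 genes were lower (3.19%, 1.09 to 8.97) and 1 higher, and where none did, 19 of 853 (2.23%, 1.43 to 3.45) were lower and 41 higher. A member within 2 kb of the gene start was held by 111 tested genes. Of these, 4 were lower (3.6%, 1.41 to 8.9) and 7 higher (6.31%, 3.09 to 12.4). With the nearest member at 2 to 10 kb, 1.61% (0.55 to 4.63) were lower and 6.45% (3.73 to 10.9) higher. At 10 to 50 kb, 2.31% (1.4 to 3.77) were lower and 3.54% (2.37 to 5.25) higher. The shares over all genes tested were 2.22% lower and 4.46% higher. The intervals of these subsets overlap in each case.

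Among the GR-only genes that were lower in L-GRKO, Errfi1, which encodes an inhibitor of the EGF receptor, was the most highly expressed of those named. It was at 411.7, 348.4, 384.4 and 387.9 RPKM with GFP and at 126, 127.2, 180.6 and 100.2 RPKM with Cre, without overlap. The log2 fold change was -1.55 ± 0.15 (SE, limma, adjusted p = 0.00041). One of its 2 members, on chromosome 4 from 150228055 to 150228234, lay 117 bp from the gene start. The other lay 18014 bp downstream of the start, closer to the start of 1700045H11Rik. Neither held the response element. Errfi1 was the only gene among 24 known glucocorticoid targets with a member within 50 kb that had no FOXO1 peak there. A FOXO1 peak lay 53957 bp from its member at the start, so Errfi1 is not GR-only at 100 kb.

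Sult5a1, a sulfotransferase, had 45.84, 40.55, 29.4 and 48.73 RPKM with GFP and 9.383, 11.86, 12.42 and 17.54 RPKM with Cre (log2 fold change -1.66 ± 0.19, limma adjusted p = 0.00096). Its 2 members lay 4517 and 23212 bp upstream, the farther one closer to the start of Dpep1. Slc49a4 had 8.482, 7.295, 6.305 and 8.003 RPKM with GFP and 4.086, 4.311, 4.206 and 4.023 RPKM with Cre (-0.78 ± 0.11, limma adjusted p = 0.0026), with a member 636 bp inside the gene. Both groups were apart in each gene.

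Megf9 fell by 1.23 ± 0.17 and Gfra1, a co-receptor of the GDNF family, fell by 0.80 ± 0.13 on the log2 scale, with members in introns about 24841 and 25099 bp from their starts. Their adjusted limma p-values were 0.0026 and 0.0053. Moxd1 was at 4.372, 22.4, 6.928 and 19.9 RPKM with GFP and at 0.025, 0.679, 0.22 and 1.253 RPKM with Cre, so that the GFP mice themselves differed several fold while no Cre mouse reached the lowest of them. Exons of Gm16277 on the other strand cover 7.6% of Gfra1's, and the counting strand is not given in the sources used here.

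Among the GR-only genes that were higher in L-GRKO, Alad, an enzyme of heme synthesis, was at 33.06, 20.24, 26.08 and 26.95 RPKM with GFP and at 81.53, 72.49, 57.26 and 69.12 RPKM with Cre. The groups were apart, and the log2 fold change was 1.39 ± 0.15 (SE, limma, adjusted p = 0.00056). Its member, on chromosome 4 from 62178032 to 62178211, lay in an intron of Alad 2830 bp from its start and 13621 bp upstream of Hdhd3. Hdhd3 had 8.975, 7.694, 8.889 and 10.55 RPKM with GFP and 23.56, 22.53, 13.24 and 30.39 RPKM with Cre (1.22 ± 0.21, limma adjusted p = 0.0072), so both neighbours of this site were higher.

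Tnfaip2, a gene induced by tumour necrosis factor, had 3.872, 2.996, 3.362 and 3.736 RPKM with GFP and 8.166, 6.835, 7.645 and 11.83 RPKM with Cre (log2 fold change 1.17 ± 0.16, limma adjusted p = 0.0022), with its member 1344 bp upstream of the start. Fzd4, a Wnt receptor, had 5.135, 6.011, 5.79 and 6.721 RPKM with GFP and 9.976, 13.03, 12.23 and 9.954 RPKM with Cre (0.88 ± 0.12, limma adjusted p = 0.0025), with its member 18935 bp downstream of the start. Neither gene's groups overlapped.

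The remaining genes of this direction were Tlr12 (log2 fold change 1.21 ± 0.15, adjusted p = 0.0014), a receptor of innate immunity, Arl5a (0.67 ± 0.09, adjusted p = 0.0018), a small GTPase, and 1810019D21Rik (0.96 ± 0.14, adjusted p = 0.0031), all by limma. The member counted for Tlr12 lay closer to the start of Zscan20. Kupffer cell markers, which could bring innate immune genes, summed to 71.0 to 168 RPKM over 6 genes with GFP and 78.9 to 142 RPKM with Cre, and none of the 6 was called in L-GRKO. Stellate cell markers summed to 46.5 to 66.2 RPKM with GFP and 64.0 to 90.2 RPKM with Cre, and 1 of 6 was higher. Endothelial cell markers summed to 49.6 to 74.7 RPKM and 63.9 to 83.6 RPKM, with 0 of 6 called. The part of these cells in the higher genes was not tested. In bulk liver, fewer cells of a type and less RNA per cell cannot be told apart.

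**Figure D5:**
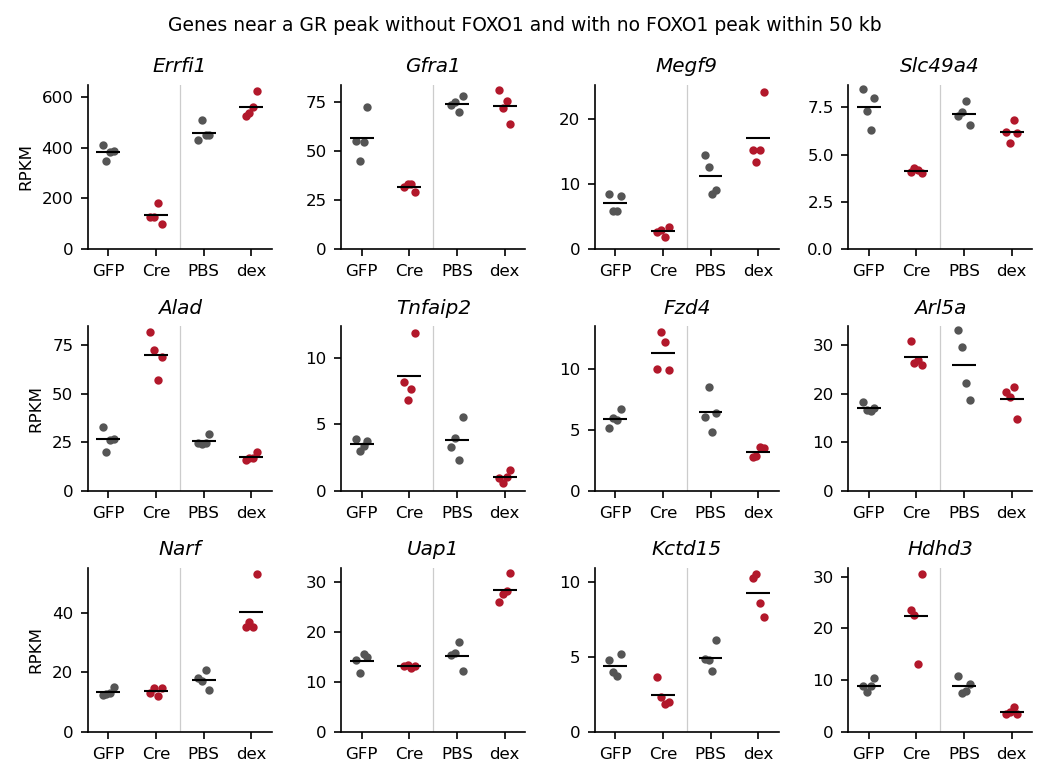
RPKM per mouse (y axis, from 0) of 12 GR-only genes in the livers of unfed GR fl/fl mice with GFP or Cre and of fed mice with PBS or dex, 4 mice each, with the mean as a line. The groups of Errfi1 and Alad are apart in L-GRKO, and those of Narf and Uap1 under dex.

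With dexamethasone before the meal, the intervals of the GR-only shares held those of all genes in both directions. Of 925 tested, 8 or 0.865% (0.439 to 1.7) were higher and 28 or 3.03% (2.1 to 4.34) lower than with vehicle, against 1.00% and 2.19% of all 11251 genes. Genes with both a member and FOXO1 were higher in 2.9% (2.27 to 3.69) and lower in 2.58% (1.99 to 3.33) of 2174. With median-ratio scaling, which moved the median of all genes from -0.10 to 0, the GR-only split was 12 higher and 11 lower, and that of all genes turned from 113 and 246 to 153 and 107. Replicate 4 of each injected group carries a later library number in the labels. Without those libraries 13 GR-only genes were higher and 60 lower, against 2.08% and 5.2% of all genes called. With the replicate number as a block the counts were 22 and 67, against 2.13% and 6.47% of all genes.

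Narf was at 18.05, 17.12, 20.75 and 14.18 RPKM with vehicle and at 35.28, 36.72, 35.3 and 53 RPKM with dex, without overlap. Its log2 fold change was 1.16 ± 0.14 (SE, limma, adjusted p = 0.00011). In L-GRKO it was 0.03 ± 0.10 (limma adjusted p = 0.92). Uap1, an enzyme of hexosamine synthesis, had 15.42, 15.82, 17.96 and 12.21 RPKM with vehicle and 26.1, 27.55, 28.19 and 31.93 RPKM with dex (0.88 ± 0.13, limma adjusted p = 0.00098), also without overlap. Both members lay upstream, 35339 bp from Narf and 21512 bp from Uap1. They lay closer to the starts of Hexdc and 4930500M09Rik.

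Mrap, an accessory protein of the ACTH receptor, had 30.15, 24.35, 27.24 and 44.18 RPKM with vehicle and 86.42, 74.03, 63.08 and 79.08 RPKM with dex (log2 fold change 1.28 ± 0.23, limma adjusted p = 0.0039), with a member 1231 bp upstream of its start. Kctd15 had 4.891, 4.779, 4.051 and 6.094 RPKM with vehicle and 10.23, 10.5, 8.611 and 7.666 RPKM with dex (0.84 ± 0.18, limma adjusted p = 0.014). Tpte (1.21 ± 0.19, adjusted p = 0.0015) and Rbbp8 (1.00 ± 0.20, adjusted p = 0.0085) were also higher by limma, Tpte from 0.253 to 0.474 RPKM with vehicle to 0.96 to 1.834 RPKM with dex. Tpte did not pass the filter in the L-GRKO experiment. The L-GRKO log2 fold changes of Uap1, Mrap and Rbbp8 were -0.10 ± 0.10, -0.04 ± 0.18 and -0.53 ± 0.20 (limma adjusted p = 0.65, 0.93 and 0.16). That of Kctd15 was -0.76 ± 0.19 (limma adjusted p = 0.035).

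Of the genes that were lower with dex, Tnfaip2 was at 3.329, 3.968, 2.356 and 5.582 RPKM with vehicle and at 0.958, 0.562, 1.039 and 1.554 RPKM with dex. The groups were apart, and the log2 fold change was -1.48 ± 0.21 (SE, limma, adjusted p = 0.00061). Fzd4 had 6.041, 8.566, 4.855 and 6.365 RPKM with vehicle and 2.778, 2.883, 3.639 and 3.503 RPKM with dex (-0.89 ± 0.17, limma adjusted p = 0.0058). Hdhd3 had 10.89, 7.576, 8.06 and 9.35 RPKM with vehicle and 3.5, 3.992, 4.88 and 3.628 RPKM with dex (-1.07 ± 0.18, limma adjusted p = 0.0023). All 3 were called higher in L-GRKO.

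Csf1, the growth factor of macrophages and the named gene of this direction whose member held the response element, had 2.372, 3.976, 4.938 and 5.093 RPKM with vehicle and 1.629, 1.594, 2.422 and 2.176 RPKM with dex. Its groups overlapped by 1 mouse, and the log2 fold change was -0.87 ± 0.18 (SE, limma, adjusted p = 0.011), a call lost in 3 of 17 alternatives. Tlr5, the flagellin receptor, had a log2 fold change of -0.81 ± 0.16 (limma adjusted p = 0.0066). The 6 Kupffer cell markers summed to 77.7 to 112 RPKM with vehicle and 46.3 to 81.3 RPKM with dex, and 1 of the 6 was called lower. The endothelial cell markers summed to 68.3 to 77.1 RPKM and 53.9 to 69.1 RPKM, and 2 of 6 were lower. The part of these cells in the lower level of immune genes was not tested.

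The calls in opposite directions met in few genes. L-GRKO and dex used different mice, and 916 GR-only genes were tested in both. Of these, 9 were higher in L-GRKO and lower with dex, which is 22.5% of the 40 genes higher in L-GRKO and 32.1% of the 28 lower with dex. Over all 11095 genes tested in both, 53 met in this way, 10.5% and 21.5% of the lists. In the other direction, 2 GR-only genes were lower in L-GRKO and higher with dex, 9.09% of 22 and 28.6% of 7, compared with 42 over all genes, 16.4% and 38.9%. The pair were Kctd15, whose calls were lost in 7 of 15 alternatives in L-GRKO and 2 of 17 with dex, and Tff3, a mucosal trefoil peptide (log2 fold change -2.58 ± 0.61 in L-GRKO, adjusted p = 0.03, and 2.78 ± 0.66 with dex, adjusted p = 0.025, by limma). Tff3 was named after its values were seen. Mup2, also named after its values were seen and a member of a family of near-identical urinary protein genes whose reads cannot be assigned with certainty, was lower in both.

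Known glucocorticoid targets had members nearby together with FOXO1. Of 30 genes on a list of such targets, 24 had a member within 50 kb, and 23 of these also had 1 to 6 FOXO1 peaks within 50 kb. Over all 21899 genes placed, 4375 had a member and 2841 of these had FOXO1 as well. In L-GRKO, 13 of the 24 were lower and 0 higher by limma (19 and 1 at an unadjusted p under 0.05), where 2.22% of all genes were lower, with a median log2 fold change of -1.14 against 0.08 over all genes. Under dex, 11 were higher and 0 lower by limma (17 and 0 at an unadjusted p under 0.05), where 1.00% of all genes were higher, with a median of 0.73 against -0.10. Over the whole list, members nearby or not, 17 of 29 tested genes were lower in L-GRKO and 15 of 30 higher with dex. The list was made up from what is known of GR and was chosen with results of these data known, so it is not independent evidence of its direction.

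Lpin1, a phosphatidate phosphatase of lipid synthesis, was at 222.4, 155.9, 129.4 and 165.4 RPKM with GFP and at 9.045, 5.567, 5.802 and 7.459 RPKM with Cre, the groups being far apart. Its log2 fold change was -4.50 ± 0.18 (SE, limma, adjusted p = 6.2e-07), and 0.93 ± 0.22 (limma adjusted p = 0.026) with dex. A member lay 30677 bp upstream, and 4 FOXO1 peaks lay within 50 kb. Fkbp5, the co-chaperone that damps GR itself, had 70.21, 35.13, 44.3 and 40.35 RPKM with GFP and 7.571, 7.082, 6.001 and 7.224 RPKM with Cre (-2.64 ± 0.18, limma adjusted p = 3.8e-05). Of its 2 members, 1 lay 600 bp upstream of the start.

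Zbtb16, a zinc finger repressor, fell by 3.46 ± 0.19 (adjusted p = 6.6e-06) and Ddit4, an inhibitor of mTORC1 signalling, fell by 2.30 ± 0.36 (adjusted p = 0.0045) on the log2 scale in L-GRKO by limma. Ddit4 had 3 members and 6 FOXO1 peaks within 50 kb, and with dex it was at 32.9, 30.21, 27.44 and 32.21 RPKM against 3.825, 2.607, 5.461 and 6.134 RPKM with vehicle (2.70 ± 0.29, limma adjusted p = 8.4e-05). Tsc22d3, which encodes GILZ, an anti-inflammatory mediator of glucocorticoids, fell by 1.81 ± 0.28 (adjusted p = 0.004) in L-GRKO and was higher by 0.87 ± 0.21 (adjusted p = 0.027) with dex, by limma. Klf15, a factor of amino acid breakdown, changed by -0.48 ± 0.09 in L-GRKO and 0.84 ± 0.16 with dex (log2, limma adjusted p = 0.013 and 0.0064). The other targets lower in L-GRKO were Per1, Pck1, Sds, Cebpb, Tdo2 and Got1, with log2 fold changes between -1.71 and -0.63. The calls of Pck1, Cebpb and Tdo2 were lost in 10, 9 and 7 of 15 alternatives, and that of Lpin1 with dex in 8 of 17.

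Sds, which breaks down serine, was at 391.6, 287.7, 275.2 and 227.9 RPKM with GFP and at 84.06, 75.91, 77.01 and 123.3 RPKM with Cre (log2 fold change -1.71 ± 0.19, limma adjusted p = 0.00056). Exons on the other strand cover 31.1% of its exons, and counting by strand is not given in the sources used here. Lcn2, an acute phase protein with 3 members, 1 of them 138 bp upstream of its start, was at 14.31, 11.86, 61.56 and 11.81 RPKM with vehicle and at 231.1, 243.2, 200.5 and 112.4 RPKM with dex (3.29 ± 0.64, limma adjusted p = 0.007). Dusp1, Mt1, Mt2 and Cdkn1a were likewise higher with dex (log2 fold changes 1.67 to 2.10, limma adjusted p between 0.00077 and 0.017). Their log2 fold changes in L-GRKO lay between -2.15 and -1.11 and did not pass the test. With dex, the calls of Mt1 and Mt2 were lost in 6 and 4 of 17 alternatives, and that of Tsc22d3 in 4. Single GFP mice stood apart in these 4 genes, at 48.47 against 13 to 16.17 RPKM for Dusp1.

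Lists of other functions had members nearby as well, as had 4375 of all 21899 genes placed, 2841 of them with FOXO1 nearby. Of 18 genes of gluconeogenesis and amino acid breakdown, 12 had a member within 50 kb, all with FOXO1 nearby, and 7 of these were lower and 1 higher in L-GRKO. In the whole list 10 of 18 were lower and 1 higher, against 2.22% lower and 4.46% higher over all genes. Pck1, G6pc, Sds, Tdo2 and Got1 are on the glucocorticoid target list too, and all of them but G6pc were among its lower genes. Lpin1, Per1 and Cebpb, named below, were likewise counted there as lower. Arg1 and Asl, of the urea cycle, fell by 1.08 ± 0.11 and 1.00 ± 0.12 (log2, limma adjusted p = 0.00049 and 0.00095). Of 18 genes of lipid metabolism, 13 had a member, with 2 higher (Elovl6 and Cyp4a10, 1.17 ± 0.26 and 2.46 ± 0.65) and 1 lower (Lpin1), compared with 3 and 2 of 18 in the whole list. The calls of Elovl6 and Cyp4a10 were lost in 5 and 8 of 15 alternatives, including median-ratio scaling. Cyp4a10 shares 29.2% of its 50-base words with Cyp4a31 and Cyp4a32, and its value is uncertain for that reason.

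For the lists that follow, the shares over all genes tested in L-GRKO were 4.46% higher and 2.22% lower. Of 16 clock genes, 10 had a member, of which Bhlhe40 (log2 fold change 0.54 ± 0.09), Nr1d1 (1.16 ± 0.26) and Tef (0.39 ± 0.10) were higher and Per1 lower in L-GRKO, compared with 4 higher and 1 lower of 15 tested in the whole list. The call of Tef was lost in 11 of 15 alternatives, including median-ratio scaling and the replicate block, and that of Nr1d1 in 5. Of 16 genes of the insulin and FOXO pathway, 8 had a member, and 1 of these, the stress gene Gadd45a, was called in L-GRKO (1.63 ± 0.27, limma adjusted p = 0.0062), compared with 1 higher and 1 lower in the whole list. Of 18 acute phase and inflammation genes, 15 had a member and 14 of them were tested, with Il1r1, the interleukin-1 receptor (-2.55 ± 0.27), and Hp, haptoglobin (-0.83 ± 0.15), lower, compared with 3 lower of 16 tested in the whole list. Of 16 liver transcription factors, 11 had a member, with Cebpa higher (0.61 ± 0.12) and Cebpb lower (-0.65 ± 0.16), which were also the calls of the whole list. Each gene named from these lists also had a FOXO1 peak within 50 kb, as did 2841 of the 4375 genes with a member over all. Exons on the other strand cover 19.1% of Gadd45a's exons and 20.7% of Cebpb's.

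The receptor antagonist S961 and the meal itself were tested in the same fit as dex, in other mice except for the fed vehicle group, which all 3 comparisons share. With S961, 4 GR-only genes or 0.432% (0.168 to 1.11) were higher and 7 or 0.757% (0.367 to 1.55) lower, against 0.942% and 0.960% of all genes. Genes with both a member and FOXO1 were higher in 2.02% (1.51 to 2.71). With the meal, 31 or 3.35% (2.37 to 4.72) of the GR-only genes were higher and 1 or 0.108% (0.0191 to 0.61) lower, against 2.55% and 0.578% of all genes. With median-ratio scaling, the GR-only counts were 12 higher and 4 lower for the meal, and 5 and 5 for S961, while those of all genes turned from 287 and 65 to 114 and 107 for the meal and from 106 and 108 to 142 and 60 for S961. Of the 6 Kupffer cell markers, 3 were higher with the meal and 3 lower with S961. The 6 endothelial cell markers summed to 68.3 to 77.1 RPKM in the fed vehicle mice, 59.4 to 65.7 RPKM in the unfed mice and 60.8 to 66.1 RPKM with S961, with no overlap between the fed vehicle mice and either of the others. The part of these cells in the counts was not tested. Without replicate 4 of each group the GR-only counts were 60 and 4 for the meal, where 4.87% and 1.5% of all genes were called, and 5 and 7 for S961, where 0.988% were called in each direction. Without replicate 2 of the unfed vehicle mice they were 6 and 0 for the meal, where 0.595% and 0.169% of all genes were called.

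In unfed DIO mice compared with lean mice, 43 of 938 GR-only genes or 4.58% (3.42 to 6.12) were higher and 10 or 1.07% (0.58 to 1.95) lower, against 3.52% and 1.70% of all 11434 genes. Genes with both a member and FOXO1 gave 4.01% (3.27 to 4.91) higher and 3.64% (2.94 to 4.51) lower. With median-ratio scaling the GR-only counts were 22 and 14, and those of all genes turned from 403 and 194 to 211 and 249. Without DIO replicate 1 the GR-only counts were 81 and 34, where 7.94% and 3.78% of all genes were called. They were 13 and 5 without lean replicate 1, where 1.04% and 0.725% were called, and 3 and 0 in a fit of the compared groups alone, where 0.148% and 0.157% were called. The endothelial cell markers summed to 33.8 to 42.2 RPKM over 6 genes in DIO mice and 57.6 to 69.3 RPKM in lean mice, and 4 of the 6 were lower. Cholangiocyte markers summed to 14.4 to 25.5 RPKM in DIO mice and 10.5 to 12.9 RPKM in lean mice, and leukocyte markers to 1.79 to 2.85 RPKM and 1.29 to 1.66 RPKM, each over 6 genes, of which 4 and 1 were tested and none was called. The part of these cells in the counts was not tested.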

How the data were processed

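The authors deposited RPKM values per RefSeq ID, 1 mouse per column, and peak positions called with HOMER (no scores) on reads aligned to mm9 with STAR. The aligner of the RNA reads, versions and strand settings are not given in the sources used here. For GR and FOXO1, peaks found in both replicates were kept. Of 24312 symbols (the ID with the highest mean RPKM), 21899 were placed on GENCODE genes of NCBIM37. Classes of peaks were compared by shares with 95% Wilson intervals, which cover counting error only. RNA was tested with limma 3.58.1 (R 4.3.3) on log2(RPKM + 0.5), at a mean of at least 0.5 RPKM, with the L-GRKO (8 libraries), injected (20) and obesity (12) experiments fitted apart, all groups of each sharing 1 spread. Scripts were tested on simulated data. Depth per library is unknown from RPKM. The members, lists and named genes were chosen with earlier results of these data known. Named were the 6 GR-only genes with the lowest adjusted p per direction in L-GRKO and dex, listed glucocorticoid targets with a member, the 5 genes with most members, Nr3c1, and up to 4 called genes from each other list. Of the items this rule gives, 1 gene and 1 sequence are not reported here. Other ChIP-seq and acetylation libraries, and RNA from uninjected, IRS-deficient, fed obese or lean, and dex plus S961 mice, entered no comparison, although the latter 2 sets shared in the fits.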

Additional observations from a re-analysis of the deposited data

Results flagged for a closer look

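Of 366 groups of 4 libraries looked at for the named genes, 30 had 1 library apart from the other 3 by Dixon's criterion at the 95% level, and chance alone flags about 1 in 20 groups. Values are RPKM of the library apart, with the nearest of the others after it, and the mouse apart was often the same, namely replicate 4 for 5 of 7 genes in fed PBS, 4 of 5 in fed dex and 3 of 3 in unfed PBS, and replicate 1 for 6 of 8 in GFP. In the fed PBS mice, 1 library stood apart for Alad (29.02 RPKM against 24.6), Moxd1 (17.28 RPKM against 1.586), Klf15 (64.12 RPKM against 45.95), Lcn2 (61.56 RPKM against 14.31), Cebpb (39.88 RPKM against 17.66), Bhlhe40 (46.03 RPKM against 36.31) and Cebpa (131.3 RPKM against 61.69). In the fed dex mice, 1 library stood apart for Narf (53 RPKM against 36.72), Zbtb16 (19.78 RPKM against 11.91), Pck1 (1236 RPKM against 985), Bcl6 (28.74 RPKM against 6.576) and G0s2 (63.53 RPKM against 16.18). In the GFP mice, 1 library stood apart for Tlr5 (3.928 RPKM against 2.149), Dusp1 (48.47 RPKM against 16.17), Mt1 (108.5 RPKM against 32.16), Mt2 (35.47 RPKM against 9.026), Cdkn1a (23.73 RPKM against 4.659), Angptl4 (108.2 RPKM against 66.77), Tdo2 (1710 RPKM against 1199) and Il1r1 (38.5 RPKM against 17.51). In the fed S961 mice, 1 library stood apart for Dusp1 (9.536 RPKM against 19.89), Lcn2 (100.7 RPKM against 20.96) and Nr1d1 (14 RPKM against 8.755). In the Cre mice, 1 library stood apart for Zbtb16 (0.847 RPKM against 0.617), Pck1 (1878 RPKM against 1148), Mt2 (6.627 RPKM against 4.14) and Angptl4 (80.75 RPKM against 25.89). In the unfed PBS mice, 1 library stood apart for Mt1 (446.8 RPKM against 819.3), Nr3c1 (12.34 RPKM against 14.26) and Cebpa (99.58 RPKM against 45.44).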

How the results depend on the processing

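Of the alternatives, 118 left a result within its limits and 85 moved it, and the cause was not tested. The count of members was 2779 to 4234 under other overlap rules. The share of members within 2 kb of a gene start became 6.97% at 1 kb and 16.7% with every transcript start. The element was found in 10.4% of 400-base windows (all DHSs 3.77%), in 1.74% at 1 letter different (0.214%) and in 29.3% at 3 (12.9%), and the FOX motif in 5.51% of 400-base windows (9.19%) and in 13.5% as 6 letters (16.8%). Counts of GR-only genes follow as higher and lower. Without a filter on low values they were 8 and 6 in L-GRKO, 13 and 0 for the meal, 17 lower with dex and 14 higher in DIO mice. With median-ratio scaling they were 25 higher in L-GRKO, 11 lower with dex, 12 and 4 for the meal and 22 higher in DIO mice. In fits of the compared groups alone they were 5 and 7 with dex, 1 and 0 with S961, 16 higher for the meal, and 3 and 0 in DIO mice. With replicates 1 to 3 only they were 13 and 60 with dex and 60 and 4 for the meal. Within 20 kb of the start they were 54 and 25 of 779 tested in L-GRKO and 12 and 25 of 770 with dex. At that distance they were 2 higher with S961, 2 lower for the meal and 19 lower in DIO mice. Within 100 kb they were 13 lower in L-GRKO, 18 lower with dex, 1 higher with S961 and 0 lower for the meal. Same-numbered samples did not all deviate together (r from -0.106 to 0.604), so the numbers were not taken as pairs, but replicate 4 did so in each injected comparison (r of 0.49 with dex, 0.604 with S961 and 0.505 for the meal). With the replicate block the counts were 31 and 20 in L-GRKO, 22 and 67 with dex, 8 and 15 with S961, 70 and 5 for the meal, and 29 and 8 in DIO mice. Leaving out 1 library gave 18 to 40 higher and 13 to 20 lower in L-GRKO, 5 to 10 and 9 to 40 with dex, 2 to 5 and 4 to 14 with S961, 6 to 38 and 0 to 3 for the meal, and 13 to 81 and 5 to 34 in DIO mice. The lowest higher count in L-GRKO, 18, came without Cre replicate 2, and the lowest lower count with dex, 9, without dex replicate 1 or 2. The meal reached 6 without unfed PBS replicate 2, and DIO mice 81 and 34 without DIO replicate 1. The share of GR-only genes stayed within 1.5 times that of all genes in 17 of 18 alternatives for each direction in L-GRKO and in 18 of 20 with dex. It lay below that in 18 of 20 for higher genes with S961 and in 20 of 20 for lower genes with the meal.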
